A study of Rattus norvegicus with 2 samples.

Results

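Somatostatin (Sst) interneurons of the rat orbitofrontal cortex were taken here as the nuclei that pass a gate of 12 genes in which Sst itself has no place, so that the level of the peptide could be read afterwards. The members were chosen by raw counts of those genes alone. A nucleus barcode entered with at least 500 detected genes, at least 2 UMIs (unique molecular identifiers, counted transcript molecules) of the GABA synthesis genes Gad1 and Gad2, and 0 UMIs of the glutamate transporter gene Slc17a7. It also needed a UMI of at least 4 of 7 marker genes (Grin3a, Elfn1, Unc13c, Npas1, Lypd6b, Cdh9 and Pappa2), at most 1 UMI of Adarb2 and at most 2 of Btbd11. The gate held 441 of 12512 barcodes, with 251 from the methamphetamine (METH) library and 190 from the saline library.

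Both groups were male Sprague-Dawley rats of 8 weeks, injected intraperitoneally for 7 days with METH at 1 mg/kg or with saline, as a model of sensitization to a psychostimulant that releases dopamine and other monoamines. All rats were killed under pentobarbital, and the tissue of 4 animals per group gave 1 single-nucleus library per group. The labels do not say how tissue of the 4 animals was joined, and nuclei of different animals cannot be told apart. Replicate libraries would be needed for a test between the groups, and none was made. Intervals are exact 95% intervals that cover counting error only, and they describe these 2 libraries and not the treatments.

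Sst interneurons are inhibitory cells of medial ganglionic eminence origin whose axons contact the dendrites of pyramidal neurons, and many of them are Martinotti cells that reach layer 1. They release GABA from small vesicles and somatostatin from dense-core vesicles, and transcription of the Sst gene is a classic target of cyclic AMP and the factor CREB. Somatostatin is cut from a precursor, loaded with granins into secretory granules in the Golgi, and acts on inhibitory G protein-coupled receptors.

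The METH library held 5543 barcodes and 44969322 UMIs, and the saline library 6969 barcodes and 42221257 UMIs. Gated nuclei summed to 1739530 UMIs in METH and 1029151 in saline, with medians of 6423 and 5003 UMIs and of 3010 and 2558 genes per nucleus. Thinned to 3000 UMIs each, the gated nuclei had medians of 1778 genes in METH (247 nuclei) and 1786 in saline (167 nuclei). The libraries shared 9 barcodes, of which 0 were in the gate of both. Levels are given as CPM, the UMIs of a gene per 1000000 UMIs of the summed nuclei, and differences as the log2 ratio of METH over saline.

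The Gad1 and Gad2 step of the gate kept a larger part of the METH than of the saline barcodes. The later steps kept similar parts of both libraries. In METH, 1541 of the 5490 barcodes with 500 genes held 2 Gad1 or Gad2 UMIs, 1186 of these had no Slc17a7 and are called GABAergic below, 305 carried 4 markers, and the limits on Adarb2 and Btbd11 left 286 and then 251. In saline the same steps gave 1238 of 6917, then 905, 214, 206 and 190. Adarb2 is a gene of interneurons from the caudal ganglionic eminence, and Btbd11 is strong in parvalbumin interneurons, so both limits remove other inhibitory classes.

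Since the 7 markers chose the nuclei, their levels are a description. Grin3a, an NMDA receptor subunit, was the most widely detected, with a UMI in 96.4% of METH nuclei and 94.2% of saline nuclei. Cdh9, a cadherin, was detected in 88.4% and 93.2%, and Unc13c, a vesicle priming protein, in 88.0% and 80.0%. Elfn1, a postsynaptic adhesion protein that sets facilitating release onto Sst cells, was detected in 87.6% and 81.1%. The other markers were sparser, at 77.3% and 67.9% for the transcription factor Npas1, 59.8% and 59.5% for Lypd6b, and 30.3% and 28.4% for the protease Pappa2. Summed over the 7 genes the level was 4675 CPM in METH against 4558 in saline, a log2 ratio of 0.037 (-0.015 to 0.089).

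The label could be checked on genes that the gate did not use. Among GABAergic nuclei 2 other groups served for comparison: Btbd11-high nuclei (at least 3 Btbd11 and at most 1 Adarb2 UMIs, 285 in METH and 196 in saline) and Adarb2-positive nuclei (at least 2 Adarb2 UMIs, 415 and 298). Sst led all genes, at 12.6 times its level in the higher of these groups, taking the mean of both libraries. It was followed by Prdm1, a transcriptional repressor, at 62.7 CPM in METH against 62.2 in saline, 12.3 times the higher group. Trabd2b, an inhibitor of Wnt proteins, stood at 38.5 and 36.9 CPM (11.4 times), but at 90.3 and 57.8 CPM in the excitatory nuclei defined below. The next gene outside the gate was Pcsk5, a proprotein convertase, at 632 and 559 CPM (9.08 times). Man1a1, a Golgi mannosidase, stood at 784 and 707 CPM (7.78 times). Apart from Sst these 4 genes hardly differed between the libraries, so the identity of the gated nuclei could be read in each library alone.

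Genes of the medial ganglionic eminence lineage were present. The transcription factor Lhx6 stood at 71.9 CPM in METH against 63.2 in saline, and Satb1, which acts in the maturation of Sst cells, at 1190 and 1069. Sox6, shared by Sst and parvalbumin cells, stood at 1445 and 1338 CPM in the gate and at 1550 and 1529 in the Btbd11-high nuclei. Some defining genes of other inhibitory classes were at or near 0. Pvalb had 1 UMI in METH and 3 in saline, Prox1, a factor of caudal eminence cells, had 1 in each, and Mybpc1 had 3 and 0. Vip stood at 17.2 and 15.5 CPM, against 528 and 618 in Adarb2-positive nuclei. Erbb4, the neuregulin receptor, stood at 199 and 305 CPM in the gate and at 3671 and 3802 in the Btbd11-high nuclei. Other genes listed as markers of those classes were not low. Col19a1, from the Sncg list, stood at 750 and 834 CPM, 1.93 times the higher GABAergic group. Igf1, from the Vip list, stood at 155 and 134 CPM (1.16 times), and Eya4, from the Lamp5 list, at 218 and 229 (1.07 times).

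**Figure D1:**
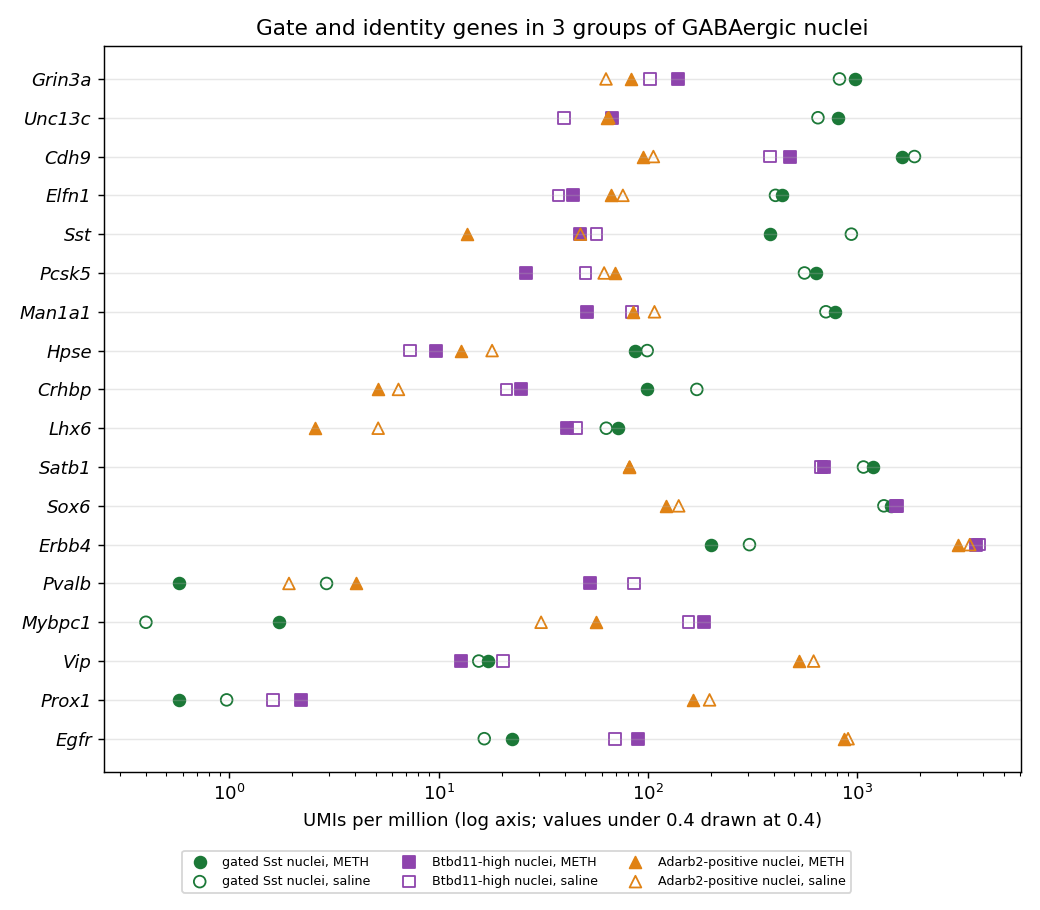
Levels of 18 genes (CPM on a log axis) in gated Sst nuclei (circles), Btbd11-high nuclei (squares) and Adarb2-positive nuclei (triangles), filled for METH and open for saline. The gated nuclei lie to the right for the top genes and to the left of both groups for Mybpc1, Prox1 and Egfr. They lie left of the Btbd11-high nuclei for Pvalb and left of the Adarb2-positive nuclei for Vip, and of the genes shown Sst, Crhbp and Erbb4 have the METH and saline circles visibly apart among those over 50 CPM.

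Among genes that divide Sst cells into subtypes, several were abundant. Reln, the secreted protein reelin, stood at 2543 CPM in METH against 2412 in saline, and Synpr, a synaptic vesicle protein, at 916 and 927. Calb1, the calcium buffer calbindin, stood at 92.0 and 95.2 CPM, and Hpse, the heparanase gene, at 86.8 and 99.1. Chodl, the marker of long-range projecting Sst cells, had 0 UMIs in the gate in both libraries, which allows levels of up to 1.72 CPM in METH and 2.92 CPM in saline. Outside the gate the METH library held 18 Chodl UMIs and the saline library 3, and whether the gate leaves these cells out was not tested. Calb2, Myh8, Nts and Edn1 were also at 0 in the gate. Npy, a peptide of many Sst cells, had 1 UMI in both libraries together, whatever the cell type. That UMI lay in a gated saline nucleus, and so low a count says nothing about Npy in these cells.

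Gated nuclei took nearly the same part of the GABAergic nuclei in both libraries. They were 21.2% (18.9 to 23.6) of 1186 in METH and 21.0% (18.4 to 23.8) of 905 in saline (log2 ratio 0.012, -0.27 to 0.29). With every barcode first thinned to 3000 UMIs the shares were 16.9% (162 of 960) and 15.8% (111 of 703). Of all barcodes with 500 genes the gate held 4.57% in METH but 2.75% in saline (log2 ratio 0.74, 0.46 to 1.01). The GABAergic nuclei as a whole made up more of the METH library, so the denominator decides whether the share differs.

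Sst was lower in the gated nuclei of the METH library. They held 663 Sst UMIs (613 to 715) or 381 CPM (353 to 411), and those of the saline library 963 UMIs (903 to 1026) or 936 CPM (878 to 997). The log2 ratio was -1.30 (-1.44 to -1.15). Per nucleus this was 2.64 Sst UMIs in METH and 5.07 in saline, although the METH nuclei were deeper. In 164 pairs of nuclei matched on total UMIs, Sst stood at 422 CPM in METH against 900 in saline, a log2 ratio of -1.09.

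Most gated nuclei still held the transcript. A Sst UMI was found in 70.5% (64.5 to 76.1) of METH nuclei and 74.7% (67.9 to 80.7) of saline nuclei at their own depth. At 3000 UMIs per nucleus the shares were 50.2% (43.8 to 56.6) and 65.9% (58.1 to 73.0), and the mean was 1.27 and 3.09 Sst UMIs. The groups of nuclei overlapped widely, with a median of 1 Sst UMI in both and 75th percentiles of 2 and 3.

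The upper end of the distribution was thinner in METH. At equal depth 5 of 247 METH nuclei held 10 or more Sst UMIs (2.02%), against 13 of 167 saline nuclei (7.78%). Nuclei with 3 to 5 Sst UMIs were 10.9% in METH and 19.2% in saline. The 25 METH and 17 saline nuclei with most Sst carried similar parts of all Sst UMIs, 51.6% and 54.1%. Without them the means were 0.685 and 1.58, so the difference was also present in the remaining nuclei.

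**Figure D2:**
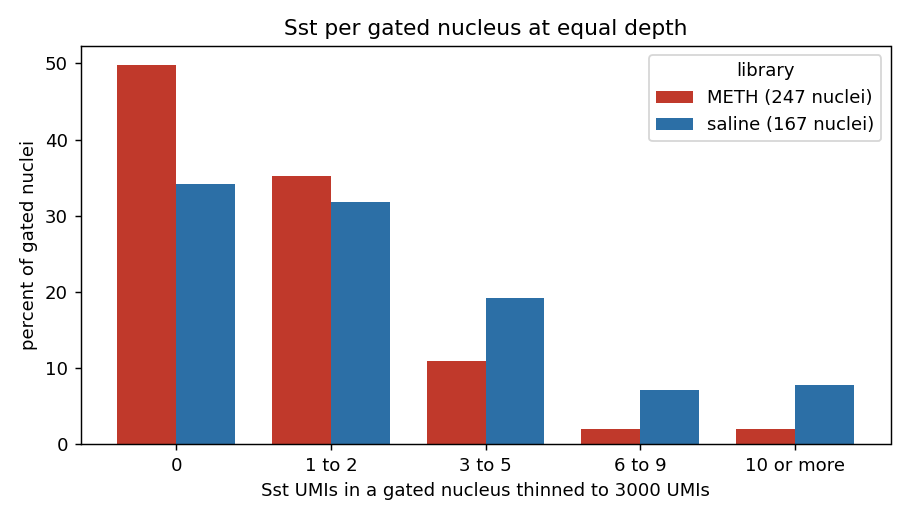
Percent of gated nuclei of each library (bars) by the number of Sst UMIs left after thinning every nucleus to 3000 UMIs. The METH bars are higher at 0 (49.8% against 34.1%) and at 1 to 2 UMIs, and the saline bars are higher in each class from 3 UMIs up.

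Free RNA from lysed cells can place Sst UMIs in any nucleus, so the level elsewhere sets the background. Excitatory nuclei (at least 3 Slc17a7 UMIs and none of Gad1 or Gad2) had Sst at 8.31 CPM in METH against 15.9 in saline, with a UMI in 9.44% and 13.2% of nuclei of median depth 11326 and 8224 UMIs. Oligodendrocyte-type nuclei had 46.5 and 39.4 CPM and a UMI in 11.7% and 7.81% of nuclei, at medians of 2098.5 and 1639 UMIs. The gated nuclei were thus far above background in both libraries.

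The ratio of Sst in the other nuclei varied by group, and the differences between groups were not tested. In excitatory nuclei the log2 ratio was -0.94 (-1.26 to -0.62), and in Adarb2-positive nuclei, at 13.6 and 47.6 CPM, it was -1.81 (-2.42 to -1.22). In Btbd11-high nuclei it was -0.26 (-0.71 to 0.19), from 47.3 and 56.8 CPM, and in oligodendrocyte-type nuclei 0.24 (-0.54 to 1.03). How much of the low level in these nuclei is free RNA was not tested. Subtracting the excitatory level from the gated nuclei left the log2 ratio at -1.30. The Adarb2-positive nuclei differed between the libraries in other genes too. Meis2 stood there at 292 CPM in METH against 54.6 in saline, Pbx3 at 226 and 75.9, and Meis1 at 60.2 and 25.1. Whether that group holds the same cell types in both libraries, which bears on its ratios here and below, was not tested.

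**Figure D3:**
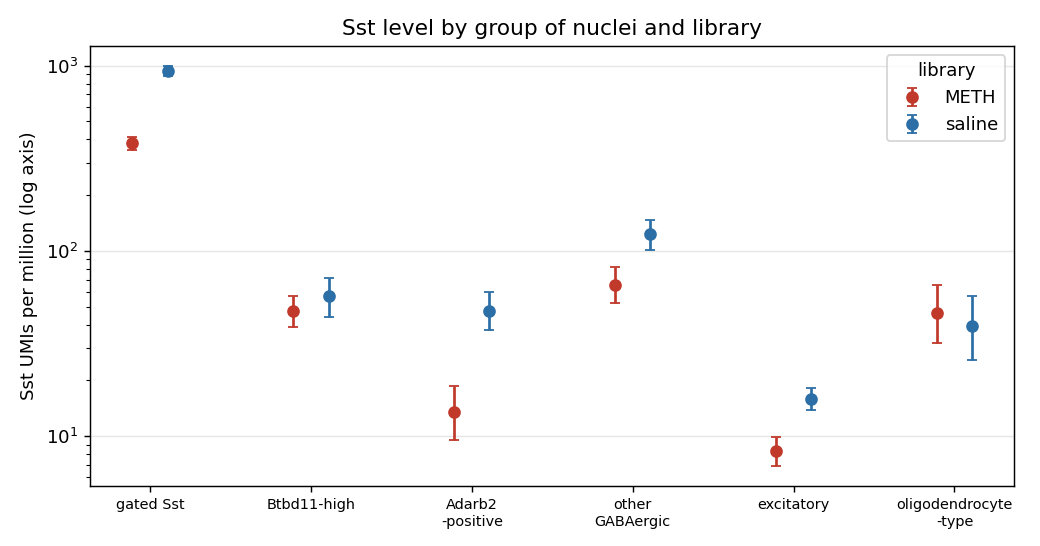
Sst level (CPM, log axis) in 6 groups of nuclei, METH in red and saline in blue, with exact 95% Poisson intervals. The gated Sst nuclei, at 381 and 936, lie above every other group in both libraries, and no other group exceeds 123.

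Sst was low below the marker limit and showed no steady order with marker number inside the gate. With 4, 5, 6 and 7 of the 7 markers the METH nuclei (55, 97, 73 and 26) stood at 384, 384, 408 and 301 CPM. The saline nuclei (68, 62, 44 and 16) stood at 878, 1102, 865 and 703 CPM. Just outside the gate, nuclei with 3 markers had 186 CPM in METH (23 nuclei) and 289 in saline (40), and those with no marker 37.0 and 35.6. At the Btbd11 limit the gap was not the same on both sides. Nuclei with 2 Btbd11 UMIs, inside the gate, had Sst at 153 CPM in METH (37 nuclei) and 535 in saline (17). Those with 3, outside it, had 395 CPM (14 nuclei, 40 Sst UMIs) and 418 (8 nuclei, 20 Sst UMIs), nearly level between the libraries. Nuclei with 1 Adarb2 UMI were inside (8 and 6) and those with 2 outside (3 and 0).

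The gate did not catch every nucleus rich in Sst. Of nuclei with at least 5 Sst UMIs, 45 of 78 were gated in METH (57.7%) and 60 of 137 in saline (43.8%). Of those nuclei, 7 in METH and 28 in saline had fewer than 2 Gad1 and Gad2 UMIs. Among the nuclei with 2 or more, 19 and 38 carried Slc17a7. This count uses the peptide itself and is given as a description.

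Nuclei could also be split by the subtype genes they carried, each nucleus counting under every gene it held. Sst was highest in saline nuclei with Cbln4, a synapse-organizing protein, at 4272 CPM in 12 nuclei, against 424 CPM in 21 METH nuclei (log2 ratio -3.33, -3.73 to -2.95). A single saline nucleus gave 32.8% of those UMIs, and without it the saline level was 3120 CPM. In nuclei with Pdyn, the prodynorphin gene, it was 686 CPM in METH (47 nuclei) and 1918 in saline (26), a log2 ratio of -1.48, and without the nucleus richest in Sst it was 593 and 1418. In nuclei with Crhbp, which encodes a protein that binds corticotropin-releasing hormone, it was 425 (97) and 1341 (86), a log2 ratio of -1.66. The intervals of these groups lay below 0, and so did those of Calb1 (365 and 889 CPM), Hpse (434 and 1056 CPM) and Nos1 (262 and 654 CPM), whose log2 ratios ran from -1.32 to -1.28. The gap was smaller in nuclei with Etv1 (220 and 363 CPM, -0.72), Lypd6b (375 and 630 CPM, -0.75) and Nr2f2 (407 and 719 CPM, -0.82). In nuclei with Mme, Tac1, Nmbr or Chrna2 the ratio was above 0, from 0.31 to 1.11, with 7 nuclei or fewer in each library and intervals that span 0.

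Clustering the gated nuclei without Sst and without the gate genes gave 7 subclusters, which are numbered and not named. Sst was lower in METH in each of them. The widest gap was in subcluster 2, led by Qrfpr, Htr2c and Nrg1, at 248 CPM in 43 METH nuclei and 871 in 41 saline nuclei (log2 ratio -1.81, -2.21 to -1.42). Subcluster 5, led by Olfm3, Ptpro and Hs3st5, had the highest level in both libraries, at 719 CPM (33 nuclei) and 2145 (27), a log2 ratio of -1.58 (-1.86 to -1.30).

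Subcluster 1, led by Il1rapl2, Nr2f2 and Pde11a, differed least, at 376 CPM in 53 METH nuclei and 513 in 30 saline nuclei (-0.45, -0.88 to -0.0087). Subclusters 3, 4 and 6 had log2 ratios of -1.13, -1.39 and -1.24. Subcluster 4 had the myelin genes Mog and Mbp among its leading genes, and subcluster 7 (8 and 7 nuclei) was led by the astrocyte transporter genes Slc1a3 and Slc1a2. Without both the Sst log2 ratio was -1.32.

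**Figure D4:**
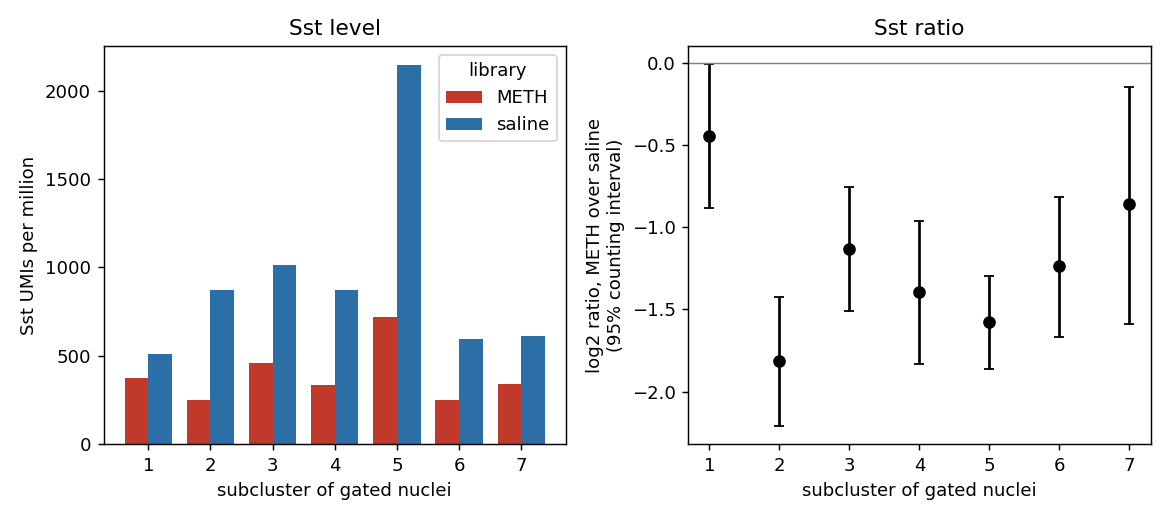
Left, Sst level (CPM, bars from 0) of the 7 subclusters of gated nuclei in METH (red) and saline (blue). Right, the log2 ratio of METH over saline with its 95% counting interval, from -1.81 in subcluster 2 to -0.45 in subcluster 1, all below 0.

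Over all genes the ratios were balanced around 0. Of 25399 genes, 5285 were measured, meaning that they had 100 or more UMIs in all and reached 20 CPM in a library, and their log2 ratios were above 0 in 2642 and below in 2643. A gene is called higher or lower here where the interval bound nearest to 0 lay beyond 1.5-fold. By this rule 1 gene rose in METH (0.0189% of those measured) and 10 fell (0.189%), 0.208% in either direction. The same rule called 0 higher and 10 lower (0.165%) of 6075 genes in the Btbd11-high nuclei, 8 higher (0.118%) and 5 lower (0.0735%) of 6805 in the Adarb2-positive nuclei, and 8 higher (0.112%) and 12 lower (0.168%) of 7130 in the excitatory nuclei.

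The genes that fell included proteins of the secretory pathway. Vgf, a precursor of secreted peptides that is stored in dense-core granules, fell from 205 CPM in saline (211 UMIs) to 97.2 in METH (169 UMIs), a log2 ratio of -1.08 (-1.38 to -0.78). It had a UMI in 47.9% of the saline and 40.6% of the METH nuclei. Chgb, the granin chromogranin B, fell from 90.4 to 40.2 CPM (93 and 70 UMIs, log2 ratio -1.17, -1.64 to -0.70). Hspa5, the chaperone BiP of the endoplasmic reticulum, fell from 116 to 46.6 CPM (119 and 81 UMIs, -1.31, -1.74 to -0.89).

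Hspa5 was also low in METH in the other groups, at -0.89 in Btbd11-high, -0.83 in Adarb2-positive and -0.49 in excitatory nuclei. Vgf stood at -0.25, -0.75 and -0.53 in these groups, and Chgb at -0.77, -0.23 and -0.20. None of these differences between groups was tested.

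The promoters of Sst and Vgf are shown because the cyclic AMP response element, the site bound by CREB, is classically described in both. In the RefSeq windows of build GRCr8, from 250 bases before to 50 after each gene's start, its letters TGACGTCA, which read the same on both strands, occur in 612 of 33469 windows (1.83%). Of the 10 named genes past the rule 9 had a window, and 2 of these held the letters, Sst and Vgf. Since the site was chosen for being described in these 2 genes, their count cannot be weighed against the share of all windows. The capitals below mark the letters. In Sst, at chr11:90461522-90461555 on the plus strand, they begin 2 bases after the RefSeq start. In Vgf, at chr12:25277077-25277136 on the minus strand, they begin 90 bases before it.
Sst: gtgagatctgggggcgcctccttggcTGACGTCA
Vgf: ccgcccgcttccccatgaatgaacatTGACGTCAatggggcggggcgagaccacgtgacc
A match of letters is a description and no measure of binding in these nuclei.

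Other genes that fell have roles in signalling and cell shape. Vav3, an exchange factor for small GTPases, fell from 214 to 103 CPM (220 and 179 UMIs, log2 ratio -1.05, -1.35 to -0.76). Its ratio was -0.57 in Btbd11-high, 0.11 in Adarb2-positive and -0.14 in excitatory nuclei. Sorcs1, a sorting receptor, fell from 86.5 to 36.2 CPM (89 and 63 UMIs, -1.26, -1.74 to -0.77). Pard3b, a polarity protein, fell from 80.6 to 35.1 CPM (83 and 61 UMIs, -1.20, -1.70 to -0.71). In saline a single nucleus gave 19.3% of the Pard3b UMIs.

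Prex2, an exchange factor for Rac, fell from 125 to 52.9 CPM (129 and 92 UMIs, -1.24, -1.65 to -0.85), but it was found in only 11.6% of the saline and 10.8% of the METH nuclei. A single nucleus gave 27.1% of its UMIs in saline and 22.8% in METH, and it was among the leading genes of subcluster 7, beside the astrocyte transporters. Without subclusters 4 and 7 its log2 ratio was -0.90, and with called doublets removed it was -2.20. Sorcs1 was also a leading gene of subcluster 7, and stood at -1.22 without subclusters 4 and 7.

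Cst3, the secreted protease inhibitor cystatin C that is abundant in glia, fell from 138 to 70.7 CPM (142 and 123 UMIs, -0.96, -1.32 to -0.61). It was as low in the other groups, at -1.15 in Btbd11-high, -1.05 in Adarb2-positive and -1.20 in excitatory nuclei. The 10th gene that fell was Mt-co2, a mitochondrially encoded subunit of cytochrome oxidase, from 522 to 279 CPM (log2 ratio -0.90). Mt-co2 lies outside the rule for named genes and is given to complete the count.

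Of 17 alternative gates, scalings and weightings, Sst and Vav3 kept the bound past 1.5-fold in all 17. Mt-co2 kept it in 15, Hspa5 and Sorcs1 in 14, Vgf in 13, Prex2 in 12, Pard3b and Chgb in 11, and Cst3 in 8. The direction was the same in all 17 for each of these genes.

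Some genes were low in METH without passing the rule. Lrrtm4, a postsynaptic adhesion protein, stood at 888 CPM in METH against 1370 in saline (1545 and 1410 UMIs, log2 ratio -0.63, -0.73 to -0.52). Its ratio was 0.11, -0.06 and 0.15 in Btbd11-high, Adarb2-positive and excitatory nuclei. Atp6v0c, a subunit of the proton pump that acidifies vesicles, stood at 112 and 199 CPM (-0.83, -1.12 to -0.54), and was likewise low in those groups, at -0.85, -0.68 and -0.63.

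Gxylt2, a glycosyltransferase that adds xylose, was the gene that rose, from 28.2 CPM in saline (29 UMIs) to 65.5 in METH (114 UMIs), a log2 ratio of 1.22 (0.62 to 1.86). It had a UMI in 29.1% of METH nuclei and 11.6% of saline nuclei. Its bound stayed past 1.5-fold in 10 of the 17 alternatives, and with every barcode thinned to 3000 UMIs before gating the log2 ratio was 0.071. The call thus rests on few saline UMIs.

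The next highest genes did not pass the rule. Fnip2, a partner of folliculin, stood at 309 CPM in METH against 199 in saline (log2 ratio 0.63, 0.40 to 0.87), with ratios of 0.13, 0.14 and 0.06 in Btbd11-high, Adarb2-positive and excitatory nuclei. Il1rapl2, a synaptic adhesion protein of the interleukin-1 receptor family, stood at 809 and 563 CPM (0.52, 0.38 to 0.67). It leads subcluster 1, which held 21.1% of the METH and 15.8% of the saline gated nuclei, and with the subclusters weighted alike its log2 ratio was 0.22. The noncoding RNA Snhg11, found in every gated nucleus, stood at 4508 and 3570 CPM (0.34, 0.28 to 0.39) and had ratios of 0.24, 0.27 and 0.22 in the other groups. Pms2, Tmem255a, Slc49a4, Limk2, Klhl13, Lss, Arhgap23 and Smpd3 had log2 ratios from 0.66 to 1.03.

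**Figure D5:**
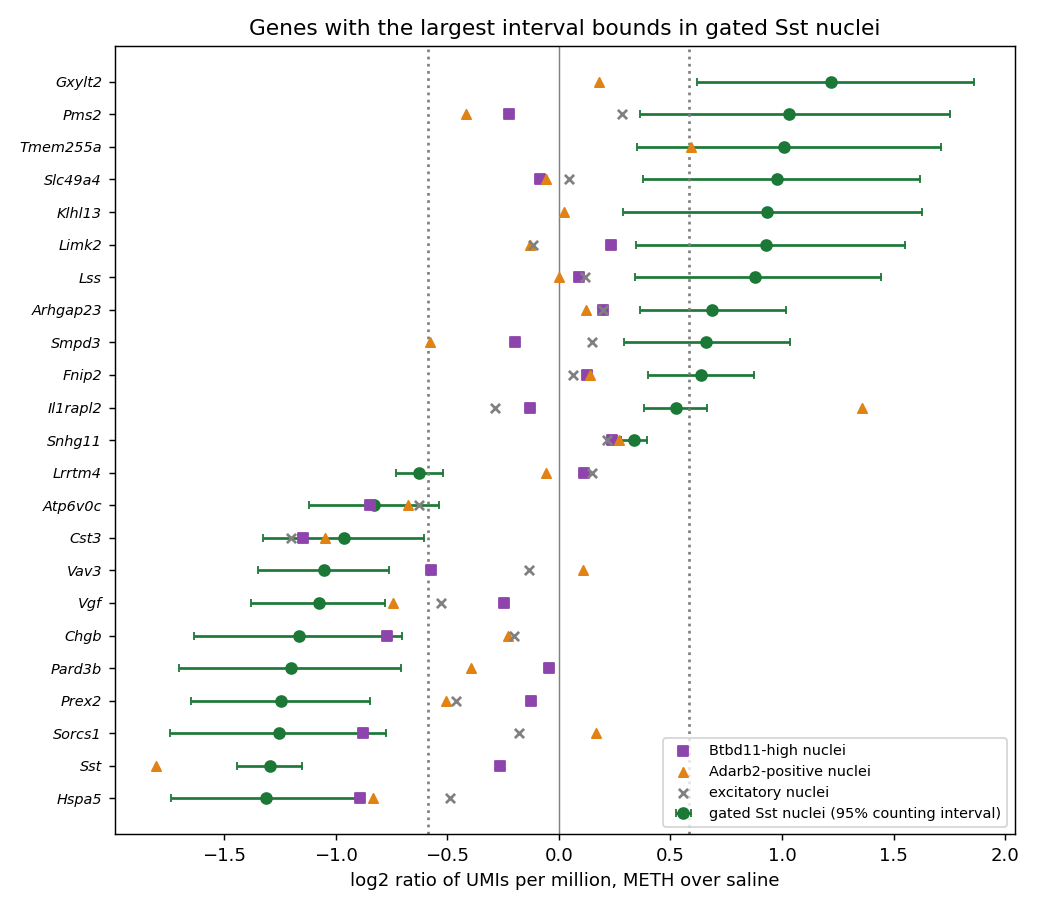
Log2 ratio of METH over saline for the 12 highest and 11 of the 12 lowest genes in gated Sst nuclei (green circles with 95% counting intervals), with the same genes in Btbd11-high (squares), Adarb2-positive (triangles) and excitatory nuclei (crosses) where measured. Dotted lines mark 1.5-fold in each direction. Sst and 8 other genes have the whole interval beyond the left line, and Gxylt2 has it beyond the right line.

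Among genes for making and storing peptides, 4 of the 13 measured were above 0 and 9 below. Of these 2 fell (Vgf and Chgb), where 10 of all 5285 measured genes did (0.189%). The median log2 ratio was -0.15, against 0.00 over all measured genes (-9.9e-05). The list was chosen with earlier results of these data known. Chga, the related chromogranin A, stood at 67.3 CPM in METH against 101 in saline (-0.59), but at -0.022 with gated nuclei thinned to 3000 UMIs. Scg5, a chaperone of prohormone convertase 2, stood at 218 and 311 CPM (-0.51). The processing enzymes lay close to 0, at 0.08 for the convertase Pcsk2, -0.15 for the carboxypeptidase Cpe and 0.05 for the amidating enzyme Pam. Of other peptides Pdyn alone was measured, at 33.9 and 41.8 CPM (-0.30, -0.89 to 0.30), and at 0.17 with at most 1% mitochondrial UMIs.

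Of 8 measured chaperones and stress genes of the endoplasmic reticulum, 2 were above 0 and 6 below, with a median of -0.39. In this list 1 gene fell (Hspa5), where 0.189% of all measured genes did. Pdia6, which forms disulfide bonds, stood at 43.1 CPM in METH against 68.0 in saline (-0.66). The lectin chaperone Calr stood at 56.9 and 88.4 CPM (-0.64), and Hsp90b1 at 72.4 and 98.1 (-0.44). Atf4, a stress-induced transcription factor, stood the other way, at 43.7 and 34.0 CPM (0.36). Pdia6, Calr and Hsp90b1 were low in METH in the other groups too. In Btbd11-high, Adarb2-positive and excitatory nuclei Calr stood at -0.79, -0.48 and -0.49. In the same order Hsp90b1 stood at -0.54, -0.23 and -0.47, and Pdia6 at -0.47, -0.39 and -0.25. Differences between groups were not tested.

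Of 27 measured genes of cyclic AMP signalling and CREB, 12 were above 0, 15 below and 0 past the rule, with a median of -0.0066. Pde10a, a phosphodiesterase, had the lowest ratio of the list, at 408 CPM in METH against 645 in saline (-0.66). It was also low in Btbd11-high (-0.80), Adarb2-positive (-1.05) and excitatory nuclei (-0.57). Adcy1, an adenylyl cyclase stimulated by calcium, stood at 177 and 138 CPM (0.36), the CREB coactivator Crtc2 at 58.1 and 45.7 (0.35), and Pde4a at 48.3 and 38.9 (0.31). Creb1 itself stood at 63.8 and 66.1 CPM (-0.05).

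Immediate early genes were too sparse to measure singly. Homer1 was the 1 of 23 in the files that was measured (373 and 416 CPM, -0.16). The 23 together stood at 562 CPM in METH against 635 in saline, a log2 ratio of -0.18 (-0.32 to -0.033), and Homer1 gave most of these UMIs.

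The genes that make and move GABA were 3 above 0 and 3 below, with 0 past the rule and a median of -0.022. Gad1 stood at 339 CPM in METH against 303 in saline (0.16), and Gad2 at 437 and 478 (-0.13), though both are gate genes. Slc32a1, the transporter that fills vesicles with GABA, stood at 33.3 and 64.1 CPM (58 and 66 UMIs, -0.94, -1.48 to -0.41) and did not pass the rule. It was at -0.94 in the Btbd11-high nuclei and -0.19 in the Adarb2-positive nuclei.

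Of 10 measured GABA receptor genes 4 were above 0 and 6 below, with 0 past the rule and a median of -0.084. The alpha subunits Gabra2 (73 and 72 UMIs, -0.74) and Gabra3 (78.2 and 113 CPM, -0.53) were lowest, followed by Gabrb2 (-0.38). Gabra2 changed sign to 0.25 when barcodes were thinned before gating.

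Glutamate receptors were balanced, with 10 of the 20 measured above 0 and 10 below, 0 past the rule, and a median of -0.0057. Grm8, a presynaptic metabotropic receptor and a leading gene of subcluster 2, stood at 499 CPM in METH against 726 in saline (-0.54). Grm3 stood at 191 and 241 CPM (-0.33), Grik4 at 51.2 and 61.2 (-0.26), and the gate gene Grin3a at 976 and 821 (0.25). These 3 signs were not stable: with barcodes thinned before gating Grm3 stood at 0.25 and Grin3a at -0.13, and without subclusters 4 and 7 Grik4 stood at 0.054.

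Receptors for monoamines, whose release METH raises, were mostly below the measured range. Drd3, Drd4 and Drd5 had 0 UMIs in the gate, Drd1 had 1 in each library, and Drd2 had 21 in METH and 8 in saline. The 3 measured genes were Htr2c (126 and 96.2 CPM, 0.39), Adra1b (51.2 and 44.7 CPM, 0.19) and Adra1a (208 and 197 CPM, 0.07), and none passed the rule.

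Channel genes differed little. Of 20 measured potassium and HCN channel genes 7 were above 0 and 13 below, with 0 past the rule and a median of -0.047. Among those far from 0 were Kcnq5 (64.4 and 93.3 CPM, -0.53), a subunit of the M current, Kcnh7 (-0.41) and Kcnab1 (873 and 1144 CPM, -0.39). With barcodes thinned before gating Kcnh7 stood at 0.040 and Kcnab1 at 0.0039. Of 16 sodium and calcium channel genes 8 were above and 8 below, with a median of -0.036, and Cacna2d1, an auxiliary subunit of calcium channels, stood at 48.9 and 72.9 CPM (-0.58).

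Synaptic adhesion genes were below 0 in 15 of 21 and above in 6, with 0 past the rule and a median of -0.13. Beside Lrrtm4 and Il1rapl2, given above, Nlgn2, the neuroligin of inhibitory synapses, stood at 56.3 and 73.8 CPM (-0.39), and Il1rapl1 at 1105 and 1396 (-0.34). Nlgn2 stood at 0.040 with barcodes thinned before gating. Genes of vesicle release were above 0 in 14 of 22 and below in 8, with 0 past the rule and a median of 0.039. Syp, synaptophysin, stood at 55.8 and 39.8 CPM (0.49), the SNARE Stx1a at 55.2 and 72.9 (-0.40), and the vesicle protein Sv2a at 155 and 202 (-0.39).

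Lineage genes of the medial eminence were above 0 in 7 of 9 and below in 2, with 0 past the rule and a median of 0.071. Nxph1, a ligand of neurexins, stood at 44.3 and 51.5 CPM (-0.22), and at 0.15 with gated nuclei thinned. Of 14 measured subtype genes 6 were above and 8 below, with 0 past the rule and a median of -0.033. Crhbp was the furthest, at 98.9 and 171 CPM (172 and 176 UMIs, -0.79, -1.10 to -0.48), then Rab3b (293 and 377 CPM, -0.36) and Etv1 (44.8 and 56.4 CPM, -0.33).

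Of 5 measured glucocorticoid receptor and response genes 3 were above 0 and 2 below, with a median of 0.083. The mineralocorticoid receptor gene Nr3c2 stood at 55.8 CPM in METH against 91.3 in saline (-0.71), and Zbtb16 at 309 and 223 (0.48). Cholesterol synthesis genes were above 0 in 4 of 5, with a median of 0.18, led by Lss, lanosterol synthase, at 67.8 and 36.9 CPM (0.88, 0.34 to 1.44). None of these passed the rule.

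Mitochondrially encoded transcripts, which are not made in the nucleus, were low in METH together. All 8 measured were below 0, with a median of -0.63, and 1 fell (Mt-co2), where 0.189% of all measured genes did. Mt-nd1 stood at 135 and 236 CPM (-0.81) and Mt-cyb at 190 and 322 (-0.76). They made up 0.189% of the gated UMIs in METH and 0.300% in saline. Nuclear genes of oxidative phosphorylation were above 0 in 9 of 25 and below in 16, with 0 past the rule and a median of -0.092, led by Cox5a (-0.73) and Ndufa4 (-0.67). Ribosomal protein genes were above in 5 of 15 and below in 10, with a median of -0.11, led by Rpl23 (-0.88).

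Markers of other cell types in the gate were mostly lower in METH too. Summed astrocyte markers stood at 153 CPM in METH against 208 in saline (log2 ratio -0.44), oligodendrocyte markers at 179 and 296 (-0.72), microglial markers at 21.3 and 58.3 (-1.45) and vascular markers at 5.17 and 26.2 (-2.34). Excitatory markers stood at 1067 and 1014 CPM (0.073) and markers of oligodendrocyte precursors at 48.9 and 43.7 (0.16). Both sums rested mostly on genes that inhibitory nuclei also carried. Cux2 (809 and 408 UMIs) and Camk2a (601 and 319) gave most of the 1856 and 1044 excitatory UMIs. Cux2 stood at 465 and 396 CPM in the gate, against 304 and 260 in excitatory nuclei. Of the 5 measured excitatory markers 2 were above 0 and 3 below. Vcan gave 64 of 85 and 24 of 45 precursor UMIs, and stood at 145 and 158 CPM in Adarb2-positive nuclei. Of the 9 vascular markers in the files, 3 were at 0 UMIs in METH and 4 in saline, and of the 10 astrocyte markers 1 in each. Among nuclei with at most 1% mitochondrial UMIs the Sst log2 ratio was -1.13. The part of these markers and of the mitochondrial transcripts in the lower levels of Sst, Cst3, Hspa5, Chgb, Vgf and the other genes that fell was not tested.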

How the data were processed

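Raw UMI counts by gene and barcode were deposited for 2 single-nucleus libraries, 1 METH and 1 saline. Per the file headers the software was Cell Ranger 7.0.0. The gene identifiers are rat Ensembl ones, although the submitters' processing notes name the human build hg38. Which rat build and annotation were used was not given in the sources used here. Listed genes whose symbol the deposited gene tables lack were not measured.

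The gate was applied to raw counts. Counts were summed over gated nuclei, scaled to CPM, and compared with exact Poisson, Clopper-Pearson and conditional binomial 95% intervals (scipy 1.17.1). Subclusters were made with scanpy 1.11.5 (2000 variable genes, 20 components, 15 neighbours, Leiden resolution 0.5). Doublets were kept. Scrublet, at an expected rate of 0.06, called 328 of 5487 METH and 401 of 6910 saline barcodes, of which 10 and 5 were gated, and their removal was an alternative. TMM factors came from edgeR 4.0.16. Promoter windows came from RefSeq.

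The members, the 36 gene lists and the size rule were chosen with earlier results of these data known. Named genes are the 12 highest and 12 lowest by the interval bound nearest to 0 (without mitochondrial, ribosomal, haemoglobin and clone-based names), Sst, the gate genes, the 12 leading identity genes, and from each list described the 2 to 4 genes furthest from a log2 ratio of 0. Pcsk2, Cpe, Pam, Creb1, Erbb4 and other class or subtype genes were named for their role. Some genes of these lists are not reported here.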

Additional observations from a re-analysis of the deposited data

How the results depend on the processing

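Sst stayed lower in METH in every alternative run, with log2 ratios from -1.47 to -1.09: it was -1.13 with at most 1% mitochondrial UMIs, -1.47 with barcodes thinned before the gate, and -1.09 in matched nuclei. The log2 ratio of the share was 0.29 with at least 5 of 7 markers, where it had been 0.012.

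The count of genes called higher, 1 in the report, was 3 with at least 3 markers, 2 with at least 5, and 2 with subclusters weighted alike. It was 0 without Cdh9, with at most 1% mitochondrial UMIs, with at least 2000 genes, with barcodes thinned before the gate and with a 2-fold bound. It was 4 when 30 UMIs sufficed without a CPM minimum, and 65 with no interval. The count called lower, 10 in the report, was 4 with barcodes thinned before the gate and 5 with gated nuclei thinned, where 1818 and 2819 genes were measured. It was 16 with subclusters weighted alike, 21 when 30 UMIs sufficed, 106 with no interval, and 1, Sst, with a 2-fold bound.

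Some list medians near 0 changed sign. For cyclic AMP and CREB genes the median was 0.033 with doublets removed, 0.021 with TMM factors, 0.00969 with AC134224 genes, mitochondrial genes and Malat1 left out of the total, 0.014 without the highest nucleus of each gene and 0.042 without subclusters 4 and 7. The potassium channel median was 0.00085 with barcodes thinned before the gate, and the ribosomal median was 0.023 without Cdh9 and 0.16 in matched nuclei. The median of nuclear oxidative phosphorylation genes was 0.29 with barcodes thinned before the gate. That of glucocorticoid receptor and response genes was -0.083 with at most 1 Slc17a7 UMI. Medians of glutamate receptor, subtype, vesicle release, GABA synthesis and transport, and sodium and calcium channel genes also changed sign in some alternatives. The cause was not tested in any of these.

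Equal weighting of nuclei or subclusters kept the interval widths of the plain sums. Leaving out subclusters 4 and 7 and subtracting the excitatory level were chosen after seeing the data. No paired analysis was possible because each group has 1 library. Depth limits what can be called: a gene at the minimum of 100 UMIs needs a change well over 1.5-fold.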
